A study of Mus musculus with 32 samples.

Results

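The large subunit of the cytosolic ribosome, the 60S particle, holds a set of small basic proteins around its ribosomal RNA, each encoded by an Rpl or Rplp gene. The genes described here were chosen by name from the table of reads counted on 3′UTRs. Every symbol of the Rpl or Rplp series was taken, with the paralogs that the same pattern covers (Rpl3l, Rpl7l1, Rpl10l, Rpl22l1, Rpl36al and Rpl39l), and without pseudogenes or mitochondrial ribosomal proteins. This gave 52 of the 44081 genes in the table. The cells were hippocampal neurons of C57BL/6 mice, taken at embryonic day 18 and kept in culture for 15 days. From each of 16 single neurons the dendrites were cut off and drawn up apart from the cell body, which gave 16 dendrite and 16 soma libraries paired by neuron. No treatment was given. RNA was amplified from its poly-A tail by the aRNA method, in 3 rounds for neurons 1 to 4 and in 2 rounds for the other 12, always the same for both compartments of a neuron. A dendrite sample holds the processes that could be drawn up from 1 neuron, and the labels do not give the class of neuron.

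Ribosomal proteins are classically made in the cytoplasm of the soma, carried into the nucleolus and built there onto ribosomal RNA before the subunit is exported. Their mRNAs are short and abundant, and many start with a tract of pyrimidines (the 5′ terminal oligopyrimidine or TOP motif), through which mTOR signalling adjusts their translation together. Transcripts of these genes are well known from dendrites and axons, where ribosomes are present far from the nucleolus.

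Libraries held 646521 to 6954420 reads on 3′UTRs in dendrites and 925525 to 21169974 in somas, and levels are given as CPM, counts scaled to library size, after TMM scaling, which corrects for differences in library composition. Mitochondrially encoded genes took 15.3% ± 9.80 (SD, n = 16) of dendrite reads and 2.02% ± 2.12 (SD, n = 16) of soma reads. Map2, a dendritic mRNA, was higher in dendrites in the edgeR test, and the nuclear RNAs Malat1 and Meg3 had a summed level of 0 to 1603 CPM in dendrites (median 480.2) against 1.09 to 8521 in somas (median 1231). All 5 genes of the pyramidal neuron list had reads in both compartments (395 to 6916 CPM summed in dendrites, 102 to 2423 in somas). The astrocyte list had reads for 6 of 6 genes in each compartment, with summed levels of 0 to 846 CPM in dendrites (median 159) and 0 to 538 in somas (median 57.5). The summed ranges were 0 to 386 and 0 to 17.5 CPM for 6 of 6 microglial genes, 0 to 173 and 0.0913 to 134 for 6 of 6 oligodendrocyte genes, and 0 to 129 and 0 to 129 for 4 of 5 endothelial genes, of which Cldn5 was at 0 in every library. The part of these RNAs in the results below was not tested.

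Large subunit mRNAs took a larger share of the dendrite reads than of the soma reads in 14 of the 16 neurons. Their summed share of 3′UTR reads was 0.931% to 2.56% in dendrites (median 1.80%) and 0.625% to 1.51% in somas (median 0.921%). The difference within a neuron was 0.810 percentage points ± 0.534 (SD, n = 16), and the share in dendrites was 1.96 ± 0.695 times (SD, n = 16) that in the soma. The highest somas overlapped the lower dendrites, and neurons 2 and 6 had the slightly higher share in the soma. Split by amplification, it was 0.886 ± 0.534 points for 2 rounds (SD, n = 12), and for 3 rounds it was 0.583 ± 0.538 (SD, n = 4). On exon counts the share was 2.65% ± 0.948 in dendrites and 1.16% ± 0.317 in somas (SD, n = 16). With mitochondrially encoded genes left out of the total, it was 2.18% ± 0.782 and 0.988% ± 0.273 (SD, n = 16).

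**Figure D1:**
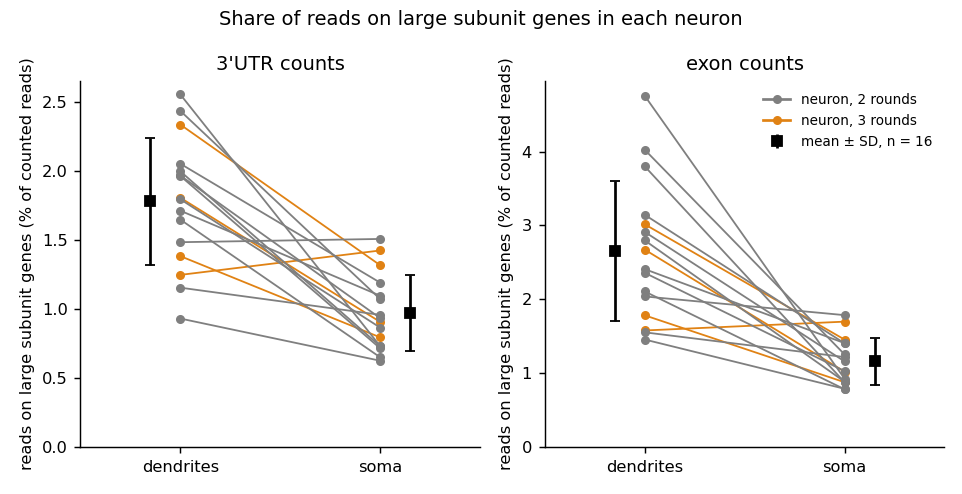
Each line joins the dendrites and the soma of 1 neuron, with the percent of counted reads that fell on the 52 large subunit genes on the y axis, for 3′UTR counts (left) and exon counts (right). Squares are means ± SD over 16 neurons (1.78% against 0.970% on 3′UTRs). Lines fall from dendrites to soma in 14 of 16 neurons on 3′UTRs, grey for 2 and orange for 3 rounds of amplification.

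Reads of most of the set were found in each dendrite sample. Of the 52 genes, 41 had at least 1 read in all 16 dendrites and 47 in all 16 somas, and 32 had at least 10 reads in all 16 dendrites against 42 in all 16 somas. A dendrite library had 45.75 ± 2.62 of the genes with at least 10 reads and a soma library 47.7 ± 1.14 (SD, n = 16). With libraries of a neuron thinned to equal depth, the soma value was 47.4 ± 1.15 (SD, n = 16). The lowest library was the dendrites of neuron 15, with 37 genes and 2235244 reads, in which Rpl3, Rpl5, Rpl7, Rpl14, Rpl18 and Rpl24 had no read. The filter of at least 1 read in at least 16 libraries was passed by 48 of the 52 genes. The other 4, Rpl3l, Rpl10l, Rpl36al and Rpl39l, are described with the paralogs.

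Gene by gene, the large subunit mRNAs lay above the typical RNA of the same libraries. Levels were compared between compartments with the quasi-likelihood test of edgeR across all 10880 genes that passed the filter, with the neuron as a block and p-values adjusted by the Benjamini-Hochberg method. Most RNAs were lower in dendrites on this scale, with a median log2 fold change of -1.49 over all tested genes. The tested large subunit genes had a median of 0.96, which is 2.46 above that of all tested genes. This gap was 0.957 with no filter beyond 1 read and 1.29 with no block for the neuron. Of the 48 genes, 44 had a fitted log2 fold change above 0, as did 21.2% of all tested genes, and 46 lay above the median gene. In 32 of them, or 66.7%, the level was higher in the dendrites in at least 12 of the 16 neurons, against 4.26% of all tested genes. The levels of the 2 compartments overlapped for all 48, as for all tested genes (0.0% did not overlap).

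At an adjusted p of at most 0.05, 3 of the 48 genes were higher in dendrites, Rpl39, Rpl41 and Rplp1, or 6.25% against 0.827% of all tested genes. None was called higher in somas, where 5.71% of all tested genes were. At an unadjusted p under 0.05 there were 18 (30.2% of all tested genes), 16 of them higher in dendrites (3.55%) and 2 lower, Rpl15 and Rpl24. The Wald test of DESeq2 called 20 higher (4.26% of all tested genes) and the same 2 lower (46.2%). The number called higher in dendrites moved with single neurons. It was 12 without neuron 15 (1.07% of all tested genes), 7 without neuron 12 (0.961%), 6 without neuron 2 (1.06%) and 6 without neuron 13 (0.771%). With no block for the neuron 12 were called (1.44%), and on exon counts with the block 12 were called (1.0%), the same 12 genes in both: Rpl12, Rpl13a, Rpl21, Rpl23a, Rpl31, Rpl32, Rpl37, Rpl38, Rpl39, Rpl41, Rplp1 and Rplp2. With the factors of DESeq2 in edgeR 3 were called (0.744%), with libraries scaled to their median gene 20 (2.26%), with at least 10 reads in 16 libraries 15 (1.24%), and with no filter beyond 1 read 0 (0.0482%). The neurons of 2 rounds alone gave 1 (0.385%), and those of 3 rounds alone 0 (0.0228%).

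**Figure D2:**
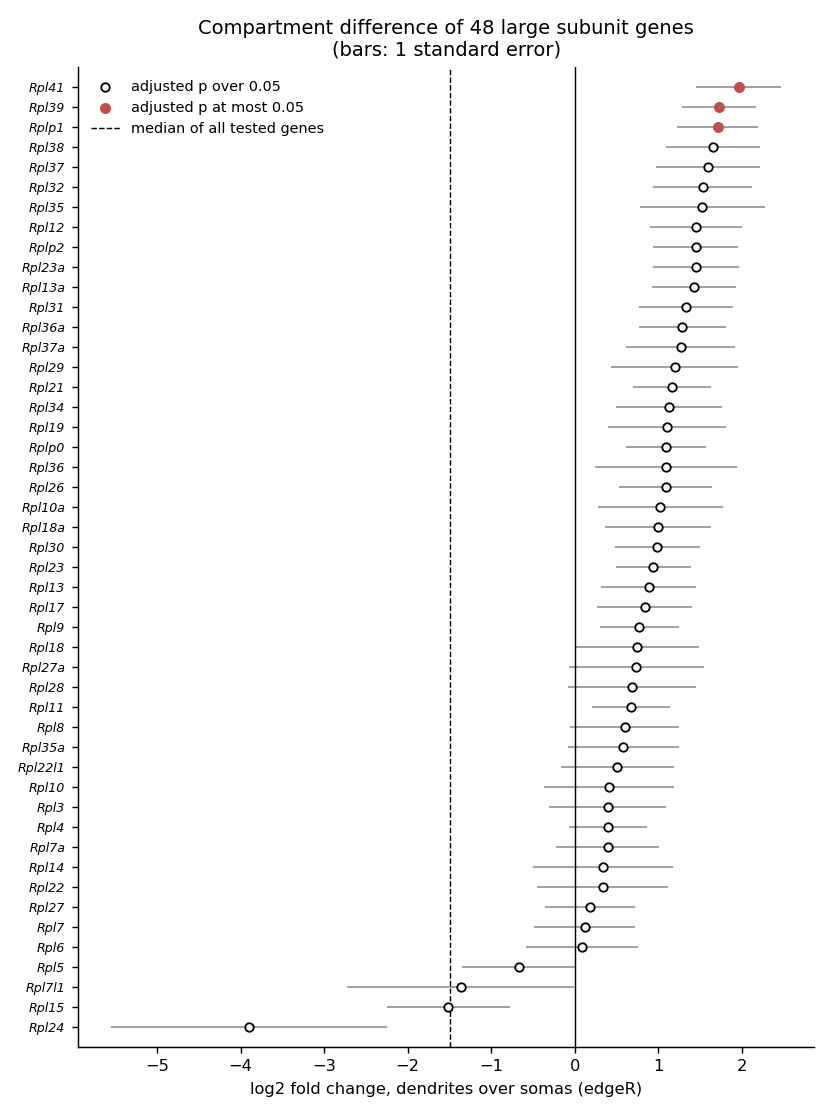
Log2 fold change of each of the 48 tested genes, dendrites over somas, from the edgeR fit over 16 neurons, with bars of 1 standard error; filled points passed an adjusted p of 0.05. The dashed line is the median of all tested genes (-1.49), and 46 of the 48 genes lie to its right.

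The largest fold change of the 48 belonged to Rpl41, which encodes the smallest protein of the ribosome, from an annotated coding sequence of 75 nt (GRCm38, chromosome 10, 128548114 to 128549305, minus strand). Its level was 77.7 to 3559 CPM in dendrites (median 841) and 68.5 to 514 in somas (median 235). The dendrites of neuron 2 were the lowest of their group and neuron 2 was the only one of 16 with the higher level in the soma. The fold change was 3.90 (log2 1.96 ± 0.51, SE, edgeR adjusted p = 0.0193).

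Rpl39, a small protein that lines the exit tunnel through which the new chain leaves the ribosome, lies on chromosome X (37082520 to 37085402, minus strand). It had 497 to 2676 CPM in dendrites (median 1270) and 128 to 925 in somas (median 284). Neuron 2 was again the only exception among 16, with the highest soma of the group. The fold change was 3.30 (log2 1.72 ± 0.44, SE, edgeR adjusted p = 0.0189).

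Rplp1 encodes an acidic protein of the P stalk, the flexible arm that recruits elongation factors, and lies on chromosome 9 (61913284 to 61914542, minus strand). Its level was 216 to 1772 CPM in dendrites (median 777) and 135 to 432 in somas (median 223). Most dendrites exceeded every soma, and only neuron 2 was higher in the soma. The fold change was 3.28 (log2 1.71 ± 0.48, SE, edgeR adjusted p = 0.0288). Over the 27 alternative fits, the adjusted p ranged from 0.000125 to 0.850 for Rpl39 (called in 23), from 0.000173 to 0.871 for Rpl41 (called in 24) and from 0.000224 to 0.850 for Rplp1 (called in 20). The high end came in each case from the 3-round neurons alone. Scaling to spike-ins turned the sign to below 0 for all 3 genes.

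**Figure D3:**
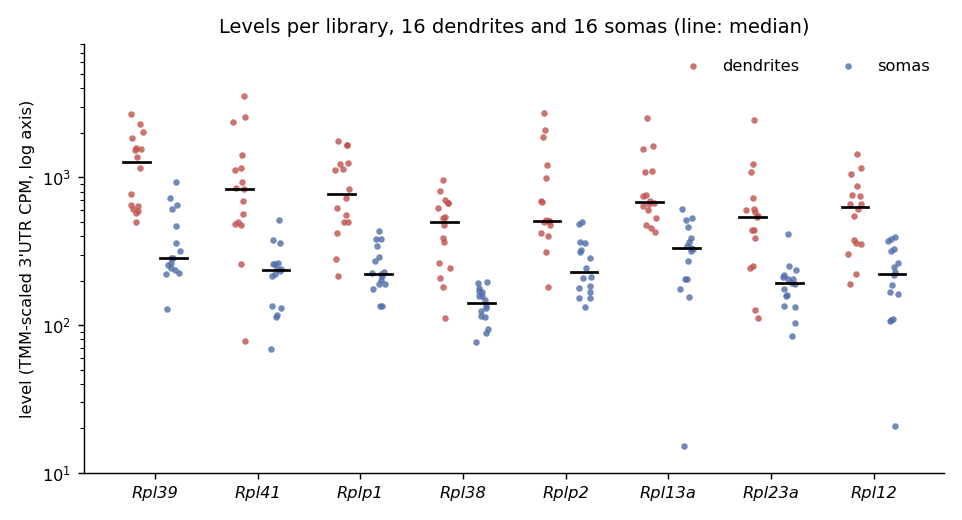
Level of 8 genes in each library on a log axis (TMM-scaled CPM of 3′UTR reads), 16 dendrites in red and 16 somas in blue, with black lines at the medians. The genes are the 3 called and the next 5 by p; medians are higher in dendrites for all 8, and the groups overlap in each.

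The rest of the P stalk lay on the same side. Rplp0 is the base of the stalk, Rplp2 the partner of Rplp1, and Rpl12 sits beside the base. Rplp2 had 181 to 2721 CPM in dendrites (median 509) and 133 to 497 in somas (median 228), with the dendrites higher in 14 of 16 neurons (log2 1.45 ± 0.51, SE, edgeR adjusted p = 0.0668). Rpl12 had 189 to 1450 CPM (median 634) against 20.7 to 398 (median 224), higher in dendrites in 12 neurons (log2 1.45 ± 0.55, adjusted p = 0.0816). Rplp0 had 130.4 to 1957 CPM (median 549.8) against 76.1 to 501 (median 295), higher in 15 neurons (log2 1.09 ± 0.48, adjusted p = 0.121). So 1 of the 4 stalk genes passed the test, and the log2 fold changes of the 4 ran from 1.09 to 1.71.

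Proteins of the exit tunnel and of its rim, where targeting factors and nascent chain enzymes dock, had log2 fold changes of 0.39 to 1.72 (8 genes, 1 called, Rpl39). Rpl23a, the docking site of the signal recognition particle at the rim, had 112 to 2430 CPM in dendrites (median 544) and 84.6 to 417 in somas (median 192). It was higher in dendrites in 15 neurons and just missed the threshold (log2 1.45 ± 0.51, SE, edgeR adjusted p = 0.0696). Rpl31 and Rpl35, also at the rim, had log2 fold changes of 1.33 ± 0.56 and 1.53 ± 0.75 (edgeR adjusted p = 0.110 and 0.161). Rpl19, Rpl26 and Rpl17 had 1.10 ± 0.70, 1.09 ± 0.56 and 0.84 ± 0.57 (adjusted p = 0.268, 0.174 and 0.303). Rpl4, which reaches into the tunnel wall and has the longest coding sequence of the set (1257 nt), had the smallest difference of the group. Its level was 209 to 1658 CPM in dendrites (median 639) and 247 to 1034 in somas (median 459), and these ranges largely overlapped (log2 0.39 ± 0.47, adjusted p = 0.554).

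Around the peptidyl transferase centre, where the peptide bond forms, 0 of 3 genes were called. Rpl3 had 0 to 517 CPM in dendrites (median 186) and 47.9 to 296 in somas (median 97.3). Rpl8 had 53.6 to 345 (median 167) against 29.6 to 251 (median 118), and Rpl10, one of the last proteins to join the subunit, 6.47 to 262 (median 116) against 7.92 to 314 (median 70.9). Their log2 fold changes were 0.40 ± 0.70, 0.60 ± 0.66 and 0.41 ± 0.78 (SE, edgeR adjusted p = 0.702, 0.523 and 0.724), with each standard error at or above the size of the difference.

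The partners of the 5S RNA, Rpl5 and Rpl11, form with it a particle that also restrains Mdm2 when ribosome assembly fails. Rpl11 had 179 to 2027 CPM in dendrites (median 767) and 116 to 1095 in somas (median 569), higher in dendrites in 11 neurons (log2 0.68 ± 0.47, SE, edgeR adjusted p = 0.307). Rpl5 had 0 to 329 CPM in dendrites (median 232) and 152 to 531 in somas (median 214), higher in dendrites in 6 neurons (log2 -0.67 ± 0.68, adjusted p = 0.485). The medians of Rpl5 stood close together although its fitted value was below 0, and that sign turned under median-gene scaling (0.15) and in the 3-round neurons alone (0.18). Rpl10a, the protein of the mobile L1 stalk by which spent tRNA leaves, had 21.1 to 329 CPM in dendrites (median 109) and 18.5 to 93.5 in somas (median 39.8), with the dendrites higher in 14 neurons (log2 1.03 ± 0.75, adjusted p = 0.331).

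Just outside the threshold stood also Rpl38 and Rpl13a. Rpl38, known for its effect on the translation of Hox mRNAs, had 111 to 967 CPM in dendrites (median 502) and 76.8 to 197 in somas (median 141). Its somas were narrowly spread and all but the lowest dendrites exceeded them (higher in 14 neurons, log2 1.66 ± 0.57, SE, edgeR adjusted p = 0.0611). Rpl13a, which also serves outside the ribosome in interferon-gamma controlled silencing of translation, had 429 to 2516 CPM in dendrites (median 682) and 15.3 to 610.2 in somas (median 333). It was higher in the dendrites of all 16 neurons, as was Rpl34 (log2 1.43 ± 0.51 for Rpl13a, edgeR adjusted p = 0.0679, and 1.13 ± 0.64 for Rpl34, adjusted p = 0.215).

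Only 4 tested genes had a fitted fold change below 0, Rpl5, Rpl7l1, Rpl15 and Rpl24, and none was called by edgeR. Rpl15, a core protein of the subunit, had 4.63 to 533 CPM in dendrites (median 64.4) and 14.0 to 644 in somas (median 196). The soma was higher in 12 of 16 neurons (log2 -1.51 ± 0.73, SE, edgeR adjusted p = 0.156), and on exon counts the difference was -0.71 ± 0.71 (adjusted p = 0.526). Rpl24, which joins late in assembly and bridges the 2 subunits, was the lowest of all. On its 3′UTR it had 0 to 90 reads per dendrite library (median 2) and 0 to 1621 per soma library (median 147.5), with a log2 fold change of -3.90 ± 1.65 (edgeR adjusted p = 0.113). On exon counts the sign turned to 1.31 ± 0.70 (adjusted p = 0.224), with the dendrites higher in 15 of 16 neurons.

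Counting on 3′UTRs and on exons gave nearly the same order of fold changes over the 47 genes tested in both (Spearman's rho 0.92, across genes of the same libraries). A few genes were seen mainly in 1 table. Rpl26, Rpl30 and Rpl34 had medians of 424, 764 and 301 3′UTR reads per dendrite library, while the sum of their exon reads over all libraries was 0.000669, 0.0105 and 0.0309 times the sum of their 3′UTR reads. Rpl36al showed the reverse, with no 3′UTR read. Rpl24 had few 3′UTR reads in dendrites only, with medians of 2 on its 3′UTR and 307 on its exons per dendrite library. Per soma library these medians were 147.5 and 853.5. In GENCODE, Rpl24 and Rpl36al each overlap 1 other gene model on the same strand, Gm28037 and Gm49383, Rpl30 overlaps Gm24523, and Rpl26 and Rpl34 overlap none. The cause was not tested, and the exon levels per length of these genes are uncertain.

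Per length of exon, the order of the genes was much alike in both compartments (Spearman's rho 0.94 over 52 genes, which share libraries, annotation and mapping). The 52 include genes with few or no exon reads. Rpl34 and Rpl30 ranked 47 and 48 in both compartments. Rpl26, Rpl3l, Rpl10l and Rpl39l shared rank 49 in both, with a median of 0. Rplp1 stood first in both, with 749.7 to 7480.2 RPKM (exon reads per kb of exon, scaled to library size) in dendrites (median 3006) and 446 to 1358 in somas (median 899). Rpl38 ranked 2 in dendrites and 3 in somas (medians 1265 and 336). Rpl39 and Rpl41 ranked 3 and 4 in dendrites with medians of 912 and 891, but 11 and 9 in somas (198 and 209.6). Rpl4 moved the other way, from rank 2 in somas (349.7) to rank 9 in dendrites (494), and Rpl15 from rank 27 (101) to rank 45 (37.6). The ranges of neighbouring genes overlapped, so that the order between them is a description. This order also depends on the exon length used as divisor, although the paper reports that most reads lie near a 3′ end. The length is 499 nt for Rplp1 and 542 nt for Rpl38, against 2697 nt for Rpl11 and 3400 nt for Rpl21. Rpl11 and Rpl21 ranked 14 and 16 in dendrites with median exon reads of 1461 and 1201, more than Rpl38 (669). Before division Rplp1 had the highest median in dendrites (2233), but in somas Rpl4 had more (5166 against 2538).

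Shorter coding sequences went with larger differences across the set, with exceptions such as Rpl12 (495 nt) and Rpl23a (468 nt), both with a log2 fold change of 1.45. Over the 48 tested genes, the log2 fold change fell with the annotated coding length (Spearman's rho -0.64). It fell with the length of the whole mRNA (-0.50) but little with that of the 3′UTR (-0.15). It also rose with the average level in log2 CPM (0.35), and the parts of length and level were not tested apart. Over the 9063 other tested genes with a length, rho with coding length was -0.06. The 24 genes with the shorter coding sequences (75 to 441 nt) had a median log2 fold change of 1.20, and all 24 lay above 0. The 24 longer ones (444 to 1257 nt) had a median of 0.64, and 20 lay above 0. The relation kept its sign in every fit tried, from -0.54 in the 3-round neurons alone to -0.67 with no filter on low counts, and was -0.59 on exon counts. Taken in each neuron by itself, rho was below 0 in 14 of 16 neurons (lowest -0.60, median -0.39, highest 0.10). These are values across genes that share libraries and amplification and they carry no test. The 48 genes have a median mRNA length of 717.5 nt and all tested genes one of 2274.5 nt.

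**Figure D4:**
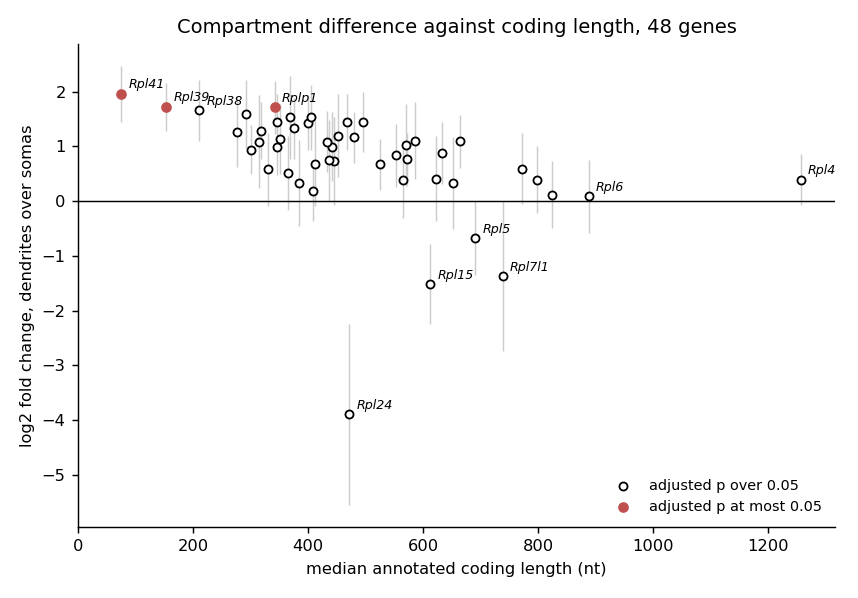
Log2 fold change (dendrites over somas, edgeR, bars of 1 standard error) against the median annotated coding length in nt for the 48 tested genes. The 3 called genes, filled, have short coding sequences (75 nt for Rpl41), and the values fall toward the right, with Rpl24, Rpl15 and Rpl7l1 lowest.

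The genes also moved together from neuron to neuron. Over the 41 genes with reads in all 32 libraries, the median correlation between pairs of genes of the log2 ratio of dendrites to soma was 0.36 over 16 neurons, against 0.06 between pairs of all 805 genes with reads in all libraries. Points share their libraries and scaling. The median log2 ratio of the 48 genes ranged from -0.19 (neuron 2) to 2.28 (neuron 16), and between 18 genes (neuron 6) and 46 genes (neuron 9) were higher in the dendrites. Relative to the median gene of the same neuron, the 48 genes lay higher in 15 of 16 neurons (2.20 ± 1.86, SD, n = 16, median 1.97). The largest values came from neurons 15 and 16 (5.97 and 6.44), whose median gene was lowest (-4.72 and -4.16). Their dendrite libraries held 2235244 and 1736725 reads, and their soma libraries 10573290 and 10717886. The ratios carry a pseudocount, which weighs most on genes with few or no dendrite reads. The parts of the pseudocount and of library depth in these values and in the mean were not tested. For 2 rounds this relative value was 2.44 ± 2.03 (SD, n = 12), and for 3 rounds 1.47 ± 1.10 (SD, n = 4).

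The share of a gene's reads that was dendritic, taken as dendrite CPM over the sum of dendrite and soma CPM, differed in its spread between genes. Its variance over neurons had a median of 0.0265 over the 48 genes and 0.101 over the 8994 tested genes with at least 10 reads in at least 10 neurons. The authors caution that differences in expression level can add to such variability. The part of read number in this contrast was not tested. Rpl32, Rpl34 and Rpl39 varied least, with fractions of 0.728 ± 0.112, 0.674 ± 0.121 and 0.750 ± 0.123 (SD, n = 16). Rpl7l1, Rpl24 and Rpl28 varied most, with 0.393 ± 0.364 (SD, n = 16), 0.221 ± 0.319 (SD, n = 15) and 0.589 ± 0.251 (SD, n = 16). Among these, Rpl7l1 had 0 to 697 reads per dendrite library and Rpl24 had 0 to 90.

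No large subunit gene passed a test of the difference between amplification protocols. Tested as an interaction of compartment and rounds (edgeR), 0 of 48 genes differed between 2 and 3 rounds, as did 0.0% of all tested genes, and 0 of the 48 had an unadjusted p under 0.05, against 288 of 10880 genes. DESeq2 called 0 of 48 (0.404% of all tested genes), as did the fit on exon counts (0.0102%). With 4 neurons in the smaller group the standard errors of this difference were wide (1.14 on the log2 scale for Rplp1, whose estimate was -0.41).

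Spike-ins gave a view of amounts in place of proportions. The labels give the same dilution of ERCC RNA for both compartments of neurons 3 to 16 and none for neurons 1 and 2. Per ERCC read, large subunit exon reads were lower in the dendrites than in the soma in 12 of 14 neurons (log2 ratio -1.36 ± 1.39, SD, n = 14), with neurons 5 and 11 higher. All exon reads together stood at -2.59 ± 1.58 (SD, n = 14). In an edgeR fit of exon counts scaled by the spike-ins, 0 of 48 genes (Rpl36al enters here and Rpl26 drops out) were called higher in dendrites (0.126% of all tested genes) and 7 lower, Rpl4, Rpl5, Rpl6, Rpl7, Rpl7l1, Rpl15 and Rpl27 (64.4% of all tested genes). The median of the 48 was then -1.62, still 2.53 above the median of all tested genes, and 47 lay above the median gene. With TMM in the same 14 neurons, a fit added after seeing the data, 4 genes were called higher in dendrites (0.725% of all tested genes). None of the 48 had a fitted value above 0 on this scale, so the higher levels given above are proportions of each library. The log2 fold changes per spike-in were -0.33 ± 0.93 for Rpl41, -0.66 ± 0.91 for Rpl39 and -0.71 ± 0.85 for Rplp1 (SE, edgeR adjusted p = 0.749, 0.5002 and 0.436), none past the threshold. How much of the dendritic tree was collected and how much RNA it held per length cannot be told apart.

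The paralogs were mostly minor partners. On the scale of exon reads per length, Rpl22l1 made up 78.2% of the sum of Rpl22 and Rpl22l1 at the median dendrite (0.176% to 99.8%) and 69.8% at the median soma (52.9% to 99.8%). On this scale Rpl22l1 was thus the larger of the pair in every soma. The shares depend on the exon lengths used, 2911 nt for Rpl22 and 1989 nt for Rpl22l1. Rpl22 and Rpl22l1 had log2 fold changes of 0.34 ± 0.78 and 0.51 ± 0.68 (SE, 3′UTR counts, edgeR adjusted p = 0.777 and 0.603). Rpl36al, whose protein is almost the same as that of Rpl36a, had no read on its 3′UTR in any library, yet it took 31.0% of the exon level of the pair at the median dendrite (0% to 72.3%) and 40.6% at the median soma (28.7% to 75.6%). Reads of such near copies can be split or lost where only unique alignments are counted, so the shares of this pair are uncertain. Its parent Rpl36a had 176 to 2179 CPM in dendrites (median 409) and 41.9 to 562 in somas (median 222), with a log2 fold change of 1.29 ± 0.53 (adjusted p = 0.102).

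Rpl7l1, an Rpl7-like protein, made up 1.25% of the pair with Rpl7 at the median dendrite (0% to 100%) and 4.98% at the median soma (0.0265% to 44.3%). Its level was 0 to 335 CPM in dendrites (median 9.95) and 0.168 to 159 in somas (median 31.1). Its log2 fold change of -1.37 ± 1.36 (SE, edgeR adjusted p = 0.480) turned to 0.22 without the block for neuron, and that of Rpl7, 0.12 ± 0.61 (adjusted p = 0.902), was also near 0. Rpl3l, the paralog of striated muscle, had 3′UTR reads in 1 dendrite (299 reads, neuron 11) and 1 soma. Rpl10l, a testis paralog, had 1 3′UTR read in 1 soma, and Rpl39l had 3′UTR reads in 2 dendrites (1 read at most) and 3 somas (71 at most). On exon reads per length, each had a median share of 0% of its pair in both compartments. The highest shares of Rpl3l, Rpl10l and Rpl39l were 23.5%, 0.452% and 8.93% in a dendrite. In a soma they were 1.56%, 0.884% and 21.9%.

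A change of 3′ end between compartments was tested for the 27 genes with 2 ends and enough reads. The isoform table gives numbered ends of 500 nt without coordinates, so the share of the higher-numbered of the top 2 ends is reported, and which of them lies further from the stop codon is not given in the sources used here. With the exact signed-rank test over neurons (two-sided, at least 10 reads in both compartments), 5 of 27 genes had p under 0.1, as did 8.44% of all 3508 genes tested. After Benjamini-Hochberg adjustment 0 of 27 passed 0.05 (0.0% of all genes tested), with a smallest adjusted p of 0.818 by the exact test. With at least 20 reads 3 of 27 had p under 0.1 (8.1% of all genes tested).

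For Rpl31, the share of the higher-numbered end was 88.5% to 100% in dendrites (median 100%) and 77.3% to 100% in somas (median 93.4%). It was higher in dendrites in 11 neurons and lower in 1 (98.9% against 92.8%, difference 6.12 points ± 8.22, SD, n = 16, exact p = 0.00928). For Rpl5 the shares were 45.4% to 100% (median 97.6%) and 39.2% to 99.6% (median 71.4%), higher in 11 of 15 neurons (difference 17.1 points ± 27.1, SD, exact p = 0.0215). Both differences had an SD above their mean, and the compartments overlapped.

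Rpl15 used its higher-numbered end rarely in somas (0.328% to 8.75%, median 3.43%) and over a wide range in dendrites (0% to 94.7%, median 5.20%). The mean difference of 16.4 points ± 29.4 (SD, n = 13, exact p = 0.0171) came with as few as 10 reads in a dendrite. Rpl27a had 0% to 100% in dendrites (median 65.7%) and 0% to 97.7% in somas (median 24.1%), higher in 10 of 14 neurons (exact p = 0.0580). Rpl21 was the only one lower in dendrites, 7.53% ± 4.51 against 9.53% ± 5.06 (SD, n = 16, lower in 11 neurons, exact p = 0.0739), and it had 336 or more reads in each library. Without neuron 3 (8.41% of all genes tested) or without neuron 16 (7.96%), 3 of the 27 genes had p under 0.1, Rpl5, Rpl15 and Rpl31.

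**Figure D5:**
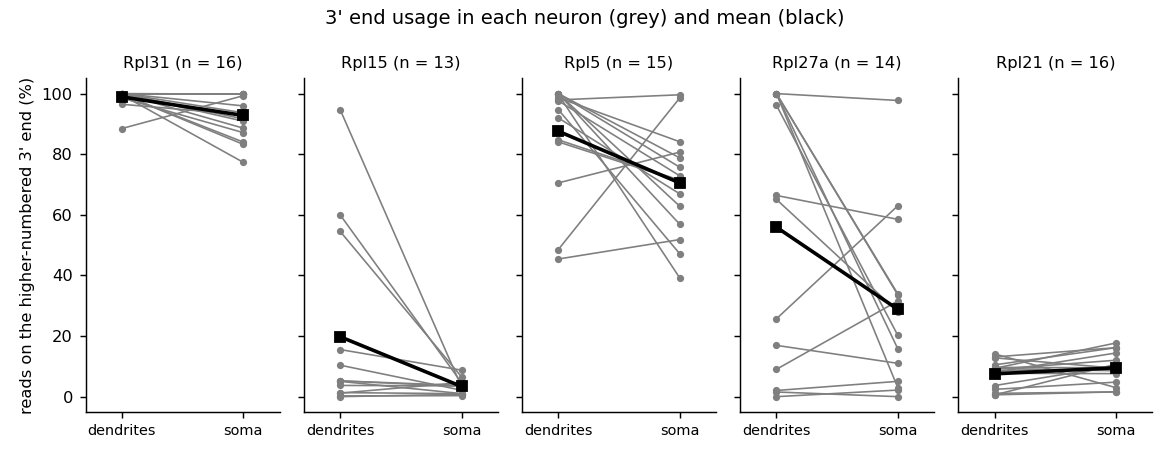
Percent of reads on the higher-numbered of the top 2 3′ ends in the dendrites and soma of each neuron (grey lines) and the mean (black) for the 5 genes with p under 0.1. The means fall from dendrites to soma for Rpl31, Rpl15, Rpl5 and Rpl27a and rise for Rpl21, and single neurons of Rpl15 and Rpl27a run across most of the axis.

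Runs of pyrimidines near the annotated start were counted without asking that the mRNA begin in them, so a run here need not be a TOP motif. RefSeq promoter windows on GRCm38.p6 matched 40 of the 52 genes by symbol. An unbroken run of at least 8 bases, each C or T, was sought within 25 bases of the start, on the strand that reads as the mRNA. It was found in 22 of them, or 55.0%, and in 22.3% of the 27025 genes with a window. The tested genes with a run (21 genes) had a median log2 fold change of 0.74 and those without (15 genes) one of 0.94. The windows of 5 genes that the results above turn on are shown 5′ to 3′, with the run in capitals:
Rpl39 (chrX:37085220-37085247, minus strand): tccaTCCCCCCCTaagctccgcctctag
Rpl38 (chr11:114668570-114668597, plus strand): aagcctcgTTCTTTCCCCgttctcttcg
Rplp2 (chr7:141447638-141447665, plus strand): cgtcagcgTCTTCCTTTCgccgccggac
Rpl13a (chr7:45128724-45128751, minus strand): cgacaagaCCTCCTCCTTTCCCaggcgg
Rpl15 (chr14:18270971-18270998, minus strand): ggagaaagCCTTCTTCCTTTCCTCTggc
The run begins 5 bases before the annotated start in Rplp2, 4 before in Rpl15 and 2 before in Rpl38, lies upstream of it in Rpl39 (from 21 bases before), and starts 2 bases after it in Rpl13a. Rpl41, Rpl12 and Rplp0 had no such run in this window, and Rplp1 and Rpl23a had no window here.

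Other parts of the translation machinery are given beside the large subunit. The 32 small subunit genes, all tested, had 5 called higher in dendrites (0.827% of all tested genes were) and 0 in somas (5.71% were), with a median log2 fold change of 1.07. The 9 elongation factor genes had a median of 0.30 with 0 called. The 49 tested factors of 60S assembly and export, which work mainly in the nucleus, had a median of -2.28, with 0 called higher in dendrites and 6 in somas, and the 47 large subunit proteins of the mitochondrial ribosome had -1.51, with 0 and 4. The median of all tested genes was -1.49, so the small subunit and the elongation factors lay above it, the assembly factors below, and the mitochondrial ribosome at it. Pseudogenes named after the 52 genes (123 in the table, 58 tested, 0 called) had a median of 1.13 and took 3.31% ± 1.47 of the reads of genes and pseudogenes together in dendrites and 2.62% ± 1.40 in somas (SD, n = 16).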

How the data were processed

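The samples were 32 libraries of soma and dendrites of 16 single neurons. The authors trimmed the reads, aligned them to mm10 with STAR (2.4.0 per the submitters' processing notes) and counted unique alignments with VERSE. All deposited values are counts, not normalized: 3′UTR counts per gene, counts on numbered 3′ ends of 500 nt, and counts on exons and ERCC spike-ins. The reads carry no molecular identifiers, and errors come from the spread between neurons. Dendrite libraries held 646521 reads or more on 3′UTRs.

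From the deposited counts, genes seen with 1 read or more in 16 libraries or more were fitted with edgeR 4.0.16 in R 4.3.3 (TMM, robust quasi-likelihood, neuron as block, calls at an adjusted p of at most 0.05). DESeq2 1.42.0, other scalings, filters, exon counts, spike-in scaling, each neuron left out and either amplification protocol alone were alternatives. 1 alternative was chosen after seeing the data, exon counts with TMM in the 14 neurons that had spike-ins. Medians, shares and exact signed-rank tests were made in Python 3.11 (SciPy 1.17.1, pandas 2.3.3, NumPy 2.4.6), and plots with matplotlib 3.10.9. Per-neuron ratios used a pseudocount of 0.5 reads. Lengths came from GENCODE vM21 on GRCm38 and promoter sequences from RefSeq. Both tests were tested on simulated data. The pairing comes from the cells. Deviations from the compartment mean correlated at 0.0887 ± 0.0772 (SD, n = 16) between compartments of the same neuron and at -0.00559 ± 0.0526 (SD, n = 240) between different neurons, and 0 of 240 library pairs within compartments held identical counts.

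The members and lists were chosen with earlier results of these data known. Named are all called genes with the next 5 by p, genes of given roles, paralogs and their parents, genes with p under 0.1 for 3′ ends, and the 3 lowest and 3 highest variances of the dendritic fraction over at least 10 neurons. Genes outside this rule (Rpl37 among calls of other fits, Rpl6, Rpl14, Rpl18, Rpl27 and Rpl30) were named after their values were seen. Protein sequences were not used here. The result of 1 list of other ribosomal proteins is not reported here.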

Additional observations from a re-analysis of the deposited data

Results flagged for a closer look

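Rpl36al was the one member with a signal outside the main measurement. It had 0 reads on its 3′UTR in all 32 libraries, yet more than 3 reads on its exons in 15 of 16 dendrites and in 16 of 16 somas. Dendrite libraries held between 0 and 1144 of its exon reads, soma libraries between 187 and 2312, and the log2 fold change on exon counts was 0.68 ± 0.74 (SE, edgeR adjusted p = 0.564). The cause of the absence from the 3′UTR table was not tested.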

How the results depend on the processing

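The median log2 fold change of the large subunit genes relative to all tested genes (2.46) stayed above 0 in all 27 alternatives. It was 0.957 with no filter beyond 1 read, 1.72 in the 3-round neurons, and 2.18 to 2.71 with each neuron left out. Genes called higher in dendrites (3) numbered 20 with DESeq2, 20 with median-gene scaling, 0 with no filter beyond 1 read, 15 with at least 10 reads, 12 on exon counts, 0 with spike-in scaling, 1 in the 2-round neurons, 0 in the 3-round neurons, and 2 to 12 with each neuron left out. The high values came without neuron 15 (12), neuron 12 (7), neuron 2 (6) and neuron 13 (6). Genes called higher in somas (0) numbered 2 with DESeq2 and 7 with spike-in scaling. The difference in share of reads was 1.49 points on exon counts. Genes with a difference in end usage (5) numbered 3 with at least 20 reads, 0 after adjustment, and 3 to 7 with each neuron left out (3 without neuron 3 or neuron 16).

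With no replicate block, 12 genes were called higher in dendrites and the relative median was 1.29. The block is the neuron from which both compartments came.

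Under scaling to spike-ins 0 of 48 genes had a log2 fold change above 0. Among the named genes it turned the sign for Rpl10 (-2.14), Rpl10a (-1.37), Rpl11 (-1.67), Rpl12 (-0.83), Rpl13a (-0.98), Rpl17 (-1.57), Rpl19 (-1.21), Rpl21 (-1.25), Rpl22 (-1.96), Rpl22l1 (-1.84), Rpl23a (-0.99), Rpl27a (-1.87), Rpl28 (-1.76), Rpl3 (-1.997), Rpl31 (-1.18), Rpl32 (-0.97), Rpl34 (-2.22), Rpl35 (-0.85), Rpl36a (-1.29), Rpl38 (-0.79), Rpl39 (-0.66), Rpl4 (-2.24), Rpl41 (-0.33), Rpl7 (-2.19), Rpl8 (-1.83), Rplp0 (-1.40), Rplp1 (-0.71) and Rplp2 (-0.84). Other signs turned for Rpl24 on exon counts (1.31, and 1.09 in the 14 neurons with spike-ins), Rpl5 with median-gene scaling (0.15) and in the 3-round neurons (0.18), Rpl7 with DESeq2 (-0.17), with its size factors (-0.17) and without neuron 8 (-0.000113, with a highest value of 0.59 without neuron 15), and Rpl7l1 with no block (0.22). The cause was not tested. Of the other single-gene values, 278 kept their sign and side of the threshold, 57 passed it newly and 15 no longer passed it, and with each neuron left out 568, 21 and 18.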
